A study of Homo sapiens with 6 samples.

Results

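The genes described here are MYC, NCL, NME1, SNRPF and TXNIP, which encode a growth-promoting transcription factor, a nucleolar protein, a nucleotide kinase, a spliceosome core protein and a glucose-sensing regulator. They are 5 of the 770 genes on the nCounter PanCancer Progression Panel, in which probes hybridize to RNA and their fluorescent barcodes are counted without amplification. The 5 genes were chosen by name with their values in both groups known, so their differences between densities are given as a description, with no test. All 5 passed the filter on low values, a mean of at least 20 normalized counts.

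The panel was read in NIH:OVCAR-3 cells, a human line derived from ovarian cancer, in 3 samples grown at low density and 3 grown at high density for 1 week. Both groups were kept in RPMI medium with insulin at 10 µg/ml, 20% fetal bovine serum, glucose at 4.5 g/L, pyruvate at 1 mM and HEPES, carried no other treatment, and were read from 100 ng of total RNA. A medium density named in the protocol was not analysed here. The model is a single cell line. The methods describe experiments as repeated without saying whether the 3 samples of a density in this assay were separate cultures. The p-values therefore rest on the spread between these samples, estimated mostly from all genes together, and that spread may be technical.

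MYC binds DNA as a dimer with MAX, most strongly at the E-box CACGTG, and raises transcription of genes for ribosome production, nucleotide supply, splicing and glycolysis. NCL (nucleolin) takes part in the transcription and processing of ribosomal RNA, NME1 (nucleoside diphosphate kinase A) passes phosphate groups between nucleotides, and SNRPF is one of the Sm proteins that ring the spliceosomal small nuclear RNAs. NCL and NME1 are known MYC targets in other cells. TXNIP binds thioredoxin and restrains glucose uptake, and its promoter is read by MondoA or ChREBP with their partner MLX when glucose phosphates accumulate.

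Promoter sequences from RefSeq (GRCh38.p14), 250 bases before to 50 bases after each start, were matched for 4 of the 5 genes: NCL, NME1, SNRPF and TXNIP. MYC had no entry among the promoter sequences used. The stretches before the start are shown for all 4 matched genes, so that the motifs they hold can be set side by side. Motifs were searched on both strands. In NCL (chr2:231464485-231464734, minus strand) capitals mark CCAAT and GGGCGG or their reverse complements, in NME1 (chr17:51153309-51153558, plus strand) and SNRPF (chr12:95858702-95858951, plus strand) they mark CCAAT, and in TXNIP (chr1:145996580-145996829, minus strand) they mark a pair of CACGAG.
NCL: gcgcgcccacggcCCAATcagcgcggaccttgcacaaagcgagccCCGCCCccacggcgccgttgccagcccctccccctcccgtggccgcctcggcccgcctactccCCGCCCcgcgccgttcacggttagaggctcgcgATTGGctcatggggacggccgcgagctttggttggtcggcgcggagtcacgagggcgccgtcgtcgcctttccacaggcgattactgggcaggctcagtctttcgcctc
NME1: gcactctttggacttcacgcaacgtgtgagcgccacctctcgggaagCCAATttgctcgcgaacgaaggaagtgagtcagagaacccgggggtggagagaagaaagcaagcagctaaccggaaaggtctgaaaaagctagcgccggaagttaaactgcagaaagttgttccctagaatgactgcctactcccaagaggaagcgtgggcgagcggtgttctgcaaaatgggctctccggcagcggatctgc
SNRPF: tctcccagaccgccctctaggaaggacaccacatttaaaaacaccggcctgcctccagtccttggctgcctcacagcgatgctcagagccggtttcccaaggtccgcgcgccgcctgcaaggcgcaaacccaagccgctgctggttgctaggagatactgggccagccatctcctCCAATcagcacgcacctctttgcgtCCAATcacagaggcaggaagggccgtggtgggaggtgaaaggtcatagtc
TXNIP: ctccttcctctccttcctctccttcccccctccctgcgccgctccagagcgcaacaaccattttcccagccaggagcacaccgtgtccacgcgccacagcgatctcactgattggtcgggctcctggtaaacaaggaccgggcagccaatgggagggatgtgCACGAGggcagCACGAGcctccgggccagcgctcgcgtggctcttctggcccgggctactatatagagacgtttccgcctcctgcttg
CCAAT, the letters recognised by the factor NF-Y, was present in all 4 matched genes and in 34.6% of 35116 RefSeq promoters of the same length. Its first base lay 237 and 109 bases before the start of NCL, 203 before that of NME1, 75 and 50 before that of SNRPF, and 140 and 105 before that of TXNIP. GGGCGG, a GC box, was found in NCL and SNRPF and in 45% of promoters, and TATAAA in none of the 4 and in 11.5% of promoters.

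The E-box CACGTG was found in NME1 alone among the 4 genes, against 7.26% of all promoters, and it lay after the start, from base 35. It stands within chr17:51153581-51153608 (plus strand), shown with the E-box in capitals because it is the only such match.
NME1 E-box: agtgctgcgaacCACGTGggtcccgggc
The pair of CACGAG in TXNIP, separated by 5 bases of any kind, is the arrangement known as a carbohydrate response element. This exact spelling, chosen after the TXNIP sequence was read, was found in 2 of the 35116 promoters, those of TXNIP and KCTD5, or 0.0057%. Pairs of other spellings were not searched, so that share is not the frequency of such elements. CACGCG, a weaker E-box, occurred at 2 places in TXNIP and in 11.4% of promoters. These motifs lay in the window of the first of the 2 starts listed for TXNIP, and the window of the other start held none of those searched. The CCAAT box and the paired E-box were added to the search after the sequences had been read.

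Depth was similar in the 6 samples, with 554863 to 696313 recovered barcode counts and a negative control mean of 6 to 10 counts. Values were scaled by the geometric mean of 30 reference genes, of which 29 could be tested. Of these, 16 passed the test, 7 higher and 9 lower at low density, in a fit that kept them and called 65.6% of its genes. Over all 480 genes tested with limma (Benjamini-Hochberg adjusted p under 0.05), 186 rose (38.8%) and 132 fell (27.5%) at low density, against 240 and 76 when scaled to the positive controls and 161 and 161 with median-of-ratios scaling. Positive control scaling moved the median log2 difference, low minus high, from 0.0447 to 0.191. The epithelial markers EPCAM, CDH1, KRT7 and KRT19 read from 1707 to 4691 in every sample, with a sum of 10230 to 10550 at low and 13340 to 13400 at high density. None of 4 ovarian serous markers listed was on the panel, so the ovarian origin was not checked. All 7 markers of leukocytes, endothelial cells and fibroblasts on the panel had means under 20, with PTPRC and ITGAM between 1 and 8.97 in single samples.

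MYC was lower at low density, while SNRPF and NME1 were higher there. NCL and TXNIP had overlapping values at both densities. MYC, NME1 and SNRPF, 3 of the 5 genes, showed no overlap between densities, as did 317 of all 480 genes tested (66.0%). NME1 and SNRPF were on the higher side at low density, and of the 480 genes 38.8% lay higher without overlap, while MYC was on the lower side, where 27.3% of the 480 lay without overlap. Since the genes were picked on these values, nothing is read from that count. In a bulk measurement such as this, fewer cells of a type and less RNA per cell cannot be told apart.

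**Figure D1:**
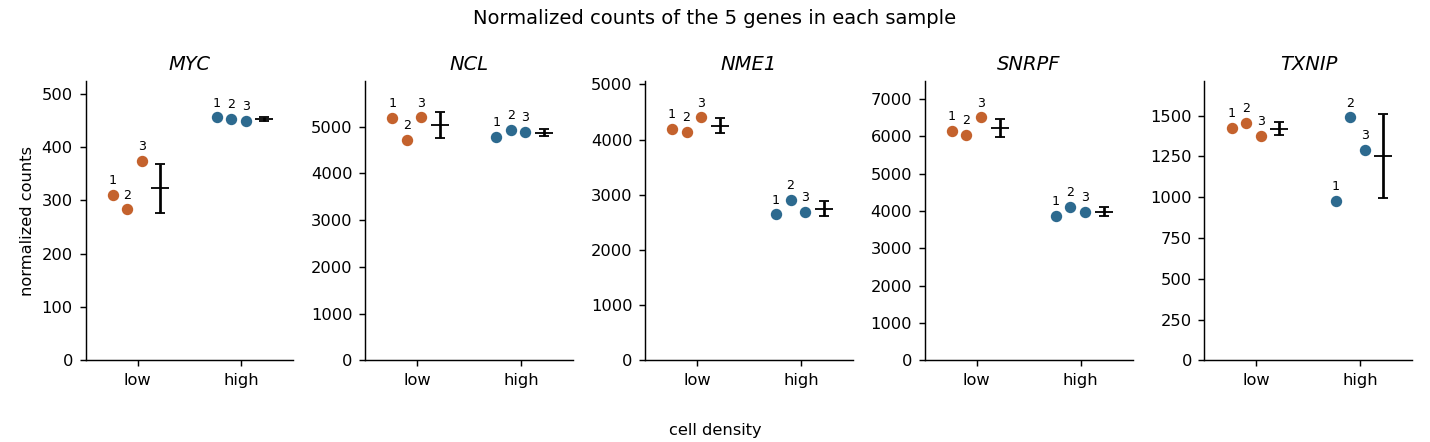
Normalized counts (vertical axes, starting at 0) of the 5 genes in each of the 3 low density and 3 high density samples, with the group mean and SD. MYC sits at 283 to 374 at low and 449 to 455 at high density, NME1 and SNRPF lie higher at low density without overlap, and the densities overlap in NCL and TXNIP.

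MYC read 310, 283 and 374 normalized counts in low density replicates 1 to 3 and 455, 452 and 449 in high density replicates 1 to 3. Every high density sample lay above every low density sample. The means were 322 ± 46.6 (SD, n = 3) at low and 452 ± 3.36 (SD, n = 3) at high density, a log2 difference of -0.50 ± 0.12 (SE), or 1.40-fold higher at high density. The high density samples were nearly equal, with a coefficient of variation of 0.743%, against 14.5% at low density, where replicate 3 stood highest. With low density replicate 3 left out, the difference was -0.61, and with replicate 2 left out it was -0.41. The pooled SD of MYC within densities, 0.145 on the log2 scale, ranked 10th of 131 genes with means of 200 to 700, whose median was 0.0786. In size, the density difference of MYC ranked 150th of the 480 genes.

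SNRPF, the Sm protein, read 6157, 6030 and 6507 normalized counts at low density, against 3871, 4108 and 3968 at high density. The lowest low density sample was well above the highest high density sample. Means of 6231 ± 247 and 3982 ± 119 (SD, n = 3 each) gave a log2 difference of 0.65 ± 0.04 (SE), 1.56-fold higher at low density.

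NME1, the nucleotide kinase, read 4197, 4145 and 4402 normalized counts at low density, against 2646, 2904 and 2696 at high density. The densities again did not overlap, and low density replicate 3 was the highest sample, as it was for SNRPF and, within its group, for MYC. Means of 4248 ± 136 and 2749 ± 137 (SD, n = 3 each) gave a log2 difference of 0.63 ± 0.05 (SE), 1.55-fold higher at low density. NME1 shares much of its coding sequence with its neighbour NME2, and whether the probe separates the pair was not tested.

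NCL, the nucleolar protein, read 5188, 4708 and 5195 normalized counts at low density, against 4780, 4927 and 4888 at high density. Low density replicate 2 was the lowest of all samples and the other low density samples were the highest. The means were 5030 ± 279 and 4865 ± 76.0 (SD, n = 3 each), a log2 difference of 0.05 ± 0.05 (SE), which was of the size of its error. In size, that difference ranked 416th of the 480 genes.

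TXNIP, the glucose-sensing regulator, read 1427, 1458 and 1378 normalized counts at low density, against 978, 1489 and 1290 at high density. The low density samples lay close together, within the range of the high density ones, where replicate 1 was far below replicates 2 and 3. The means were 1421 ± 40.4 and 1252 ± 257 (SD, n = 3 each), a log2 difference of 0.20 ± 0.18 (SE). Without high density replicate 1 the difference was 0.04, and without high density replicate 2 it was 0.34, so single samples set its size.

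The spread of TXNIP at high density stood apart from that of other genes of its level. Its pooled SD within densities, 0.22 on the log2 scale, was the highest of the 211 genes with means of at least 500, whose median was 0.048. High density replicate 1 lay 0.398 below the lower of the other high density samples, and 0 of these 211 genes had a larger gap in that direction. The median absolute deviation of replicate 1 over those genes was 0.0297, against 0.0354 and 0.031 for replicates 2 and 3. A median does not show how far single genes lie. Against sampling noise, replicate 1 had a chi-square per gene of 2.002 with replicate 2 and 1.972 with replicate 3. Replicates 2 and 3 gave 1.786 with each other. Among 368 genes with means of at least 100, TXNIP had the second largest gap of replicate 1 from its group. The first was PFKFB4, an enzyme that sets the level of the glycolysis activator fructose 2,6-bisphosphate, named after its values were seen. PFKFB4 read 185 in high density replicate 1 and 91.0 and 122 in replicates 2 and 3, the opposite direction to TXNIP. After the 0.398 of TXNIP came genes outside the glucose list, ITGA5 at 0.374, PNPLA6 at 0.302 and NOTCH1 at 0.291. Of these, PNPLA6 lay low in replicate 1, as TXNIP did, and ITGA5 and NOTCH1 lay high. These ranks describe 1 sample.

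**Figure D2:**
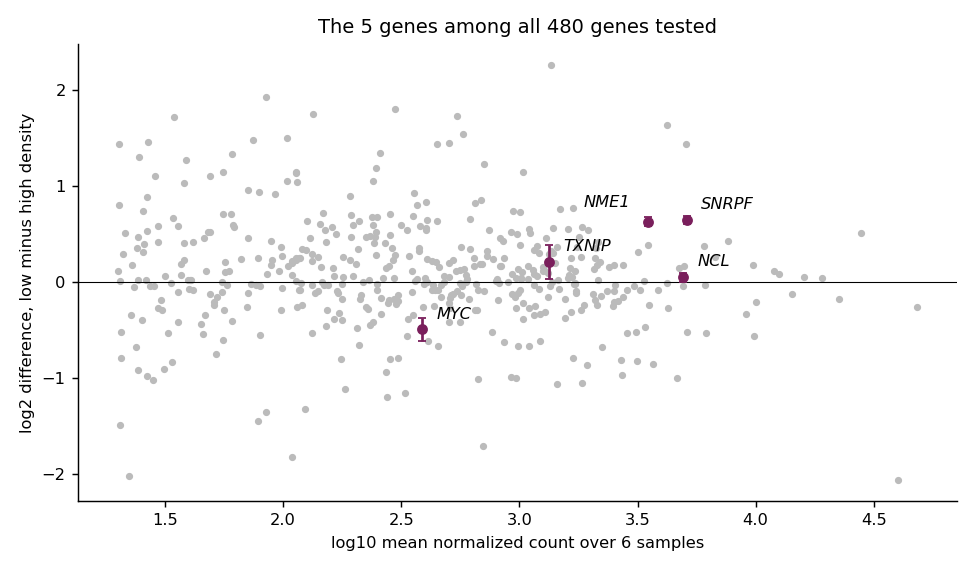
Log2 difference, low minus high density (vertical axis), against log10 mean normalized count (horizontal axis) for the 480 tested genes, with the 5 genes named and their own SE as bars. SNRPF at 0.65 and NME1 at 0.63 lie together above 0, MYC lies at -0.50, NCL at 0.05, and TXNIP at 0.20 carries the widest bar.

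Within each sample, the ratio of one gene to another does not depend on the scaling factor of that sample. Captured fractions differ between probes, so a ratio is compared between samples and not read as a relative abundance. The log2 ratio of NME1 to MYC was 3.76, 3.87 and 3.56 at low density, against 2.54, 2.68 and 2.59 at high density. The ratio was therefore higher in every low density sample, by 1.13 on the log2 scale. For SNRPF over MYC it was 4.31, 4.41 and 4.12 against 3.09, 3.18 and 3.14, also without overlap and 1.14 higher at low density.

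The same ratio for NCL over MYC was 4.07, 4.06 and 3.80 at low density, against 3.39, 3.45 and 3.45 at high density. NCL, which did not differ in level beyond its error, was thus higher relative to MYC at low density by 0.55. TXNIP over MYC was 2.20, 2.36 and 1.88 against 1.10, 1.72 and 1.52, a difference of 0.70 with the closest samples 1.88 and 1.72. All these ratios share the MYC values, so they are not independent of each other. NCL over NME1, which leaves MYC out, was 0.31, 0.18 and 0.24 at low density, against 0.85, 0.76 and 0.86 at high density, a difference of -0.58.

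SNRPF and NME1 kept nearly the same ratio in all 6 samples. Its log2 value was 0.55, 0.54 and 0.56 at low density, against 0.55, 0.50 and 0.56 at high density. The low minus high difference of this ratio was 0.02, although both genes differed by over 1.5-fold in level. The SD of the ratio over the 6 samples was 0.0227, which ranked 24th of 114960 pairs of tested genes, with a median of 0.316. Counting alone would give an SD of 0.0329, so the ratio varied by no more than counting error. These are descriptions over 6 samples that fall into 2 densities. Both genes were picked with their values known and differ in the same direction, so the rank is no test of a link between them. The pairs ranked also include genes with means down to 20, whose counting error is larger.

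**Figure D3:**
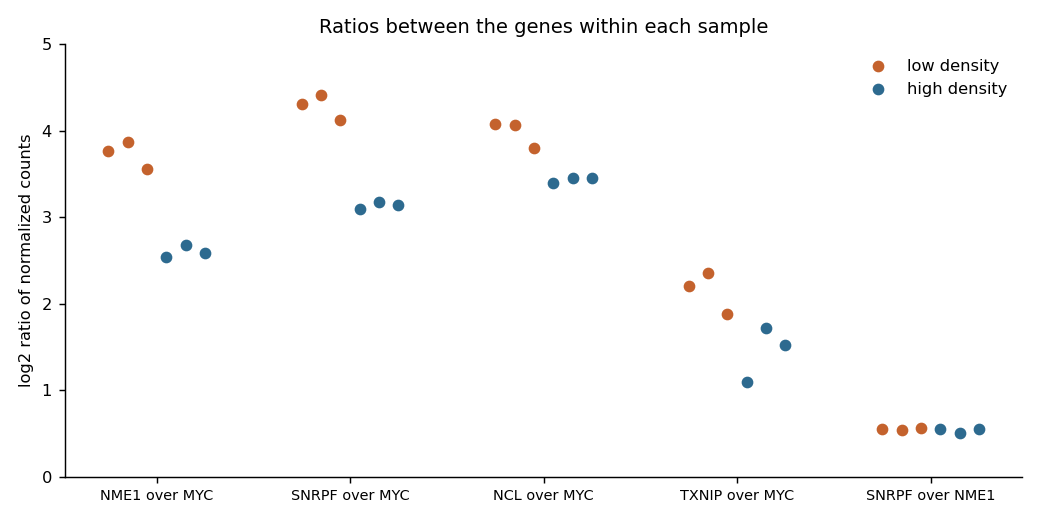
Log2 ratios between genes (vertical axis) in each low and high density sample. NME1, SNRPF, NCL and TXNIP over MYC lie higher in every low density sample, while SNRPF over NME1 stays between 0.50 and 0.56 in all 6 samples.

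The genes with the profile most like each member were taken by the root mean square difference between log2 profiles, each centred on its own mean over the 6 samples. For MYC these were CAMK2D at 0.0667, SERINC5 at 0.0941 and OAS1 at 0.0955, against a median of 0.328 over all genes. CAMK2D, a calcium-dependent kinase subunit, had means of 171 ± 14.5 at low and 240 ± 10.2 at high density (SD, n = 3 each). For NME1 the closest gene was SNRPF at 0.0207, then AKAP12 at 0.0411 and P3H2 at 0.0437. For SNRPF it was NME1, then AKAP12 at 0.0423 and RBL1 at 0.0472. AKAP12, a scaffold for protein kinase A, had means of 2198 ± 63.2 at low and 1481 ± 26.7 at high density (SD, n = 3 each). CASP8, MAP3K7 and RBPJ were closest to NCL, at 0.0249 to 0.0306, and had differences of 0.04 to 0.06. TXNIP had no gene as close, its nearest being ICAM1 at 0.114, PNPLA6 at 0.126 and TGFBR2 at 0.136.

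Other genes of the pathways were taken from lists chosen with earlier results of these data known, so their calls are no independent support. In these lists, 26 distinct genes outside the reference set could be tested. Of these 7 rose and 11 fell at low density (69.2% called), beside 66.2% of all 480 genes. The balance of directions turned with the scaling, at 9 and 6 with the positive controls, 10 and 10 with the total, 8 and 13 with quantile scaling and 6 and 14 with median of ratios. Of 25 genes of the MYC network, 1 was on the panel, the MYC paralogue MYCL. It read 145, 125 and 113 at low density, against 255, 228 and 190 at high density, and fell at low density by 0.81 on the log2 scale (SE 0.1, limma adjusted p = 2.7e-14). MYC and MYCL thus both lay lower in every low density sample than in any high density sample, as did 27.3% of the 480 genes.

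Among 5 further MYC-activated genes tested, 1 rose, 2 fell and 2 did not pass, with a median log2 difference of -0.09, against 0.0447 over all genes. All 5 are glucose or glycolysis genes and are counted again in the glucose list below. HK2, which phosphorylates glucose, fell by 0.39 on the log2 scale (limma adjusted p = 1.9e-14). Lactate dehydrogenase LDHA fell by 0.13 (adjusted p = 0.00016), but lay 0.02 higher at low density when scaled to the positive controls. Pyruvate kinase PKM rose by 0.08 (adjusted p = 0.016), a call lost with median-of-ratios scaling (0.02, adjusted p = 0.479) and without replicate 3 of low density (adjusted p = 0.0974) or of high density (adjusted p = 0.0926). Of 3 MYC-repressed genes tested, NDRG1, a gene of stress and hypoxia responses, fell by 0.83 (adjusted p = 1.7e-71), THBS1, the matrix protein thrombospondin 1, rose by 0.59 (adjusted p = 1.9e-13), and CDKN1A did not pass, at -0.11 (adjusted p = 0.59). Among the activated genes, 0 rose and 2 fell with median-of-ratios scaling or without either replicate 3, and 2 rose and 1 fell with positive control or total scaling. The repressed genes kept 1 that rose and 1 that fell under these settings.

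Beside NCL, the 3 genes of the nucleolus list on the panel were all reference genes, on which the scaling itself rests. NOL7 rose by 0.25 (limma adjusted p = 4.8e-09), FCF1 fell by 0.09 (adjusted p = 0.027) and DDX50 did not pass. FCF1 was 0.06 higher at low density with positive control scaling (adjusted p = 0.393). Beside SNRPF, the splicing and mRNA processing list held ESRP1 and 8 reference genes. ESRP1, an epithelial splicing regulator, fell by 0.24 (adjusted p = 1e-08), a call lost with positive control scaling (-0.09, adjusted p = 0.141). Of the 8 reference genes 3 rose, 3 fell and 2 did not pass.

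SF3A3, a subunit of the U2 small nuclear ribonucleoprotein, had means of 1239 ± 17.8 at low and 800 ± 10.7 at high density (SD, n = 3 each), 0.63 higher at low density (limma adjusted p = 9e-29). The difference is close in size to the 0.65 of SNRPF, and the log2 ratio of SNRPF to SF3A3 was 2.29, 2.30 and 2.40 at low and 2.28, 2.38 and 2.29 at high density. USP39, needed for assembly of the tri-snRNP, rose by 0.41 (adjusted p = 1e-17), whereas ZC3H14, a poly(A)-binding protein, fell by 0.40 (adjusted p = 4.8e-12). SF3A3, USP39 and ZC3H14 kept these directions and calls with positive control scaling.

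NME4, the mitochondrial nucleoside diphosphate kinase, differed in the opposite direction to NME1. It had means of 1084 ± 44.5 at low and 1369 ± 37.7 at high density (SD, n = 3 per density), falling by 0.34 (limma adjusted p = 3.5e-12). The log2 ratio of NME1 to NME4 was 1.92, 2.01 and 1.99 at low and 0.97, 1.12 and 0.93 at high density, 0.97 higher at low density without overlap. TYMP, the only other gene of the nucleotide list on the panel, lay under the floor of 20.

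Of 11 glucose and glycolysis genes tested beside TXNIP, 3 rose, 4 fell and 4 did not pass, with a median difference of -0.09. The 5 MYC-activated genes above are among these 11. PDK1, which inhibits pyruvate dehydrogenase, fell by 0.80 (limma adjusted p = 1.3e-20) and HK2 fell as given above. The glycolytic enzymes ENO2 and GPI rose by 0.71 (adjusted p = 2.4e-05) and 0.54 (adjusted p = 4.6e-33). With positive control scaling 5 of the list rose and 2 fell, with total scaling 5 and 3, and with quantile scaling 4 and 3, so the balance of directions depended on the scaling. The glucose transporter SLC2A1 did not pass, at -0.09 (adjusted p = 0.37).

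Of 9 translation and mTOR signalling genes tested, 3 rose, 3 fell and 3 did not pass, with a median difference of -0.04. The split was 3 and 1 with positive control scaling, and 3 and 6 with median-of-ratios and with quantile scaling. EIF4EBP1, which encodes a repressor of cap-dependent translation, had means of 1375 ± 13.0 at low and 2508 ± 163 at high density (SD, n = 3 each) and fell by 0.86 on the log2 scale (limma adjusted p = 2.9e-67). Like MYC and 27.3% of the 480 genes, it was higher in every high density sample than in any low density sample. EIF4E2, a cap-binding protein, rose by 0.36 (adjusted p = 7e-15). The ribosomal S6 kinase gene RPS6KB1 fell by 0.22 (adjusted p = 1.7e-05), a call lost with positive control scaling (adjusted p = 0.34).

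**Figure D4:**
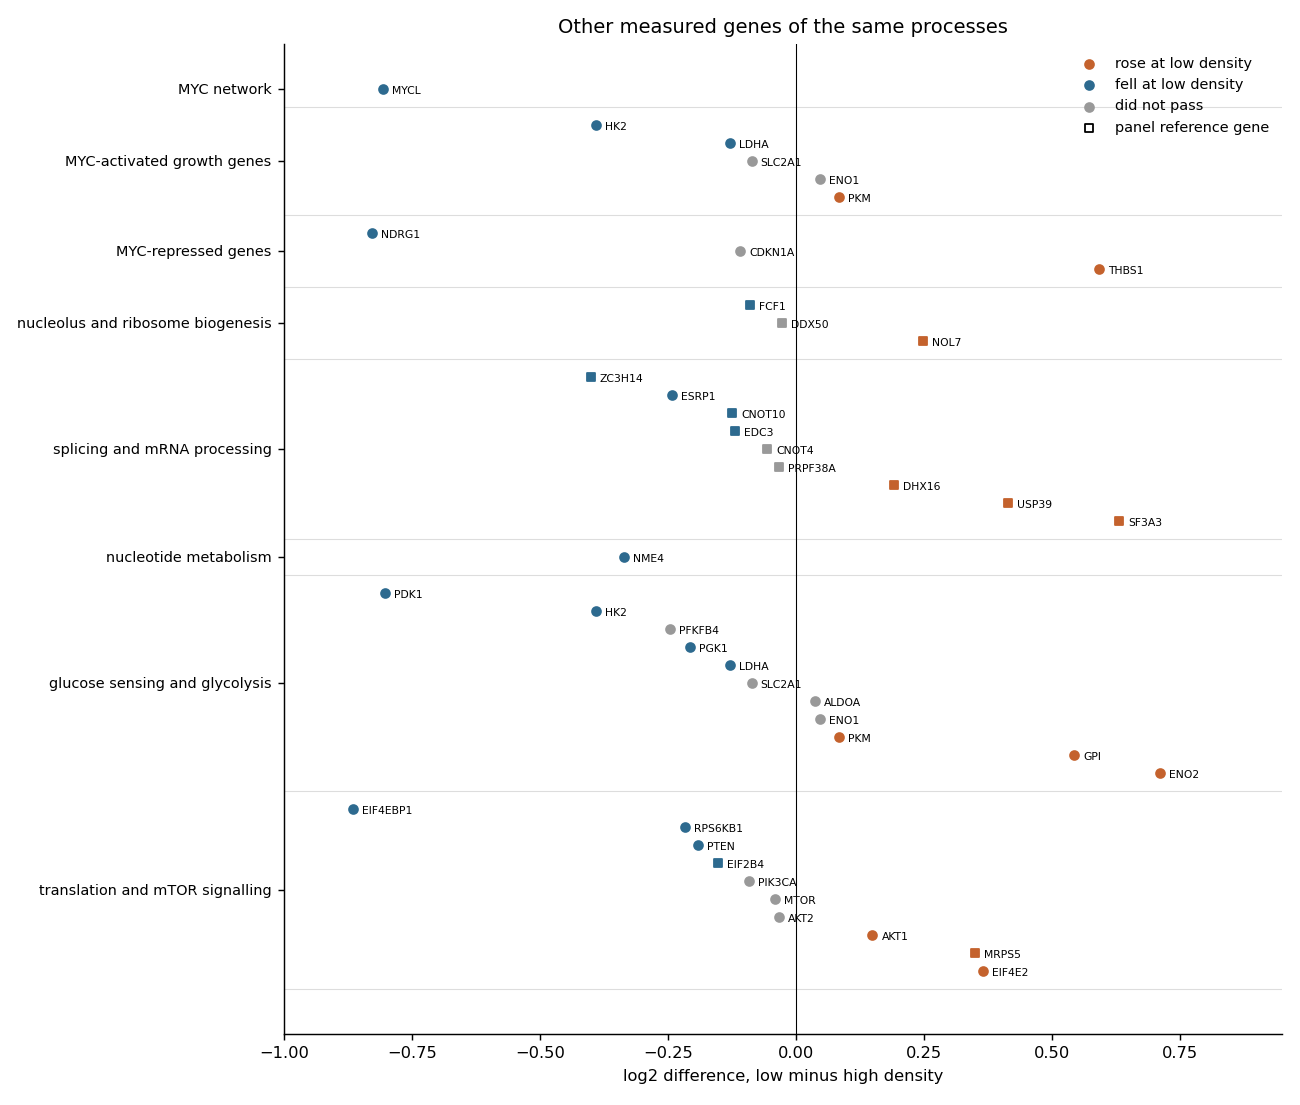
Log2 difference, low minus high density (horizontal axis), of list genes tested and of reference genes in the lists, grouped by list, with colour for genes that rose, fell or did not pass and squares for reference genes. Most lists hold genes on both sides of 0, with MYCL at -0.81 near NDRG1 at -0.83, and SF3A3 at 0.63 on the higher side.

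Scaling by 1 factor per sample moved the 5 genes together. Relative to the median of all genes tested, MYC lay at -0.54, NME1 at 0.58 and SNRPF at 0.60 under the deposited scaling. These 3 values were the same when scaled to the positive controls, to the total or by median of ratios. Such scaling shifts every gene and the median alike, so this sameness was fixed in advance. With quantile scaling the values were -0.598, 0.705 and 0.636, and with negative control subtraction -0.568, 0.566 and 0.583. NCL, at 0.0021 relative to that median, was the gene whose direction turned, from 0.05 under the deposited scaling to -0.02 with median-of-ratios and -0.04 with quantile scaling. The direction of MYC, NME1, SNRPF and TXNIP held under each of these scalings.

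**Figure D5:**
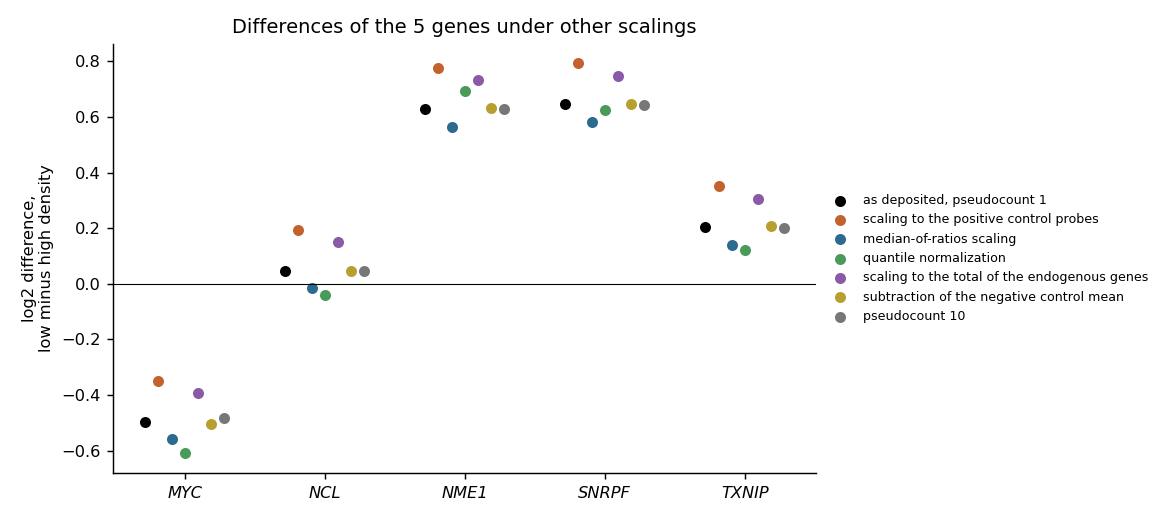
Log2 difference, low minus high density (vertical axis), of the 5 genes under the deposited scaling, other scalings, negative control subtraction and a pseudocount of 10. MYC stays under 0, nearest to it at -0.35 with the positive controls as the base, NME1 and SNRPF stay above 0.5, and NCL crosses 0.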

How the data were processed

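RNA of 3 low density and 3 high density samples of NIH:OVCAR-3 was read with the nCounter PanCancer Progression Panel. The authors deposited a table of 784 probes (770 genes, 30 of them reference genes, 8 negative and 6 positive controls). The deposited gene values are a signal, barcode counts times 1 factor per sample that equalised the geometric mean of the reference genes. The scaling was worked out from the numbers, and its software was not given in the sources used here. No background had been subtracted. Under 100 counts, 98.9% to 100% of values were whole multiples of 1 step per sample within 0.1 count, and the step gave the recovered counts used for depth. Low density replicates 1 and 2 were nearest to sampling noise, with a chi-square per gene of 1.12 (chi-square p = 0.033, not corrected for the number of pairs). The other pairs exceeded it more clearly, at 1.397 to 2.00 within a density and 103.7 to 128.6 between densities.

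The 480 genes outside the reference set whose 6-sample mean reached 20 were tested as log2(value + 1), which understates changes of low genes, with limma 3.58.1 in R 4.3.3. The model held density alone, with empirical Bayes moderation and a mean trend, two-sided, adjusted over the 480 genes at 0.05. Reference genes were read from the same fit with them kept. The moderation had 457.1 prior degrees of freedom, so the variance of a gene came mostly from the trend over all genes. In limma without the trend, adjusted p was 0.000103 for NDRG1 and 4.85e-05 for EIF4EBP1. By the t-test of the methods, adjusted p was 0.00165 for NDRG1 and 0.000942 for EIF4EBP1. The 5 genes and the lists were chosen with earlier results of these data known. The SE of each of the 5 genes was computed from the 3 samples per density alone, and that of a list gene is from the limma fit. The smallest exact p for 3 against 3 is 0.1. Named genes were the 5, up to 4 per list with the largest differences past the threshold, the 3 of closest profile and the markers, and the other genes named were added to complete counts of 5 or fewer or after their values were seen. In the translation and mTOR list, 1 gene is counted but not reported here by name or in the plot of list genes. The fit was tested on simulated data. Of the symbols, 755 were current and 15 were older symbols of 1 gene. Alternatives were other scalings, filters, a pseudocount of 10, no trend, the t-test of the methods, a threshold of 0.01, a block for the replicate number and the removal of each sample in turn.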

Additional observations from a re-analysis of the deposited data

How the results depend on the processing

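Leaving out 1 sample in turn, the low minus high log2 difference ranged from -0.61 to -0.41 for MYC, 0.02 to 0.09 for NCL, 0.60 to 0.67 for NME1, 0.61 to 0.67 for SNRPF and 0.04 to 0.34 for TXNIP. Scaled to the positive controls, the difference was -0.35 for MYC, 0.19 for NCL, 0.78 for NME1 and 0.79 for SNRPF. With median-of-ratios scaling it was -0.0171 for NCL, 0.56 for NME1 and 0.58 for SNRPF. With quantile scaling it was -0.0415 for NCL and 0.69 for NME1, and with total scaling 0.15 for NCL, 0.73 for NME1 and 0.75 for SNRPF. These shifts follow from 1 factor per sample, other than for quantile scaling. In the 250 bases before the start, 0 of the 4 matched genes held CACGTG.

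Over all genes tested, 264 (t-test of the methods) to 336 (total scaling) were called against 318, and 293 to 316 without 1 sample. The list genes called numbered 15 with positive controls to 21 with quantile scaling, against 18, and 17 to 19 without 1 sample. In the splicing list, 0 were called with positive controls against 1. With the replicate number as a block, 320 genes were called (188 rose, 132 fell) and 19 list genes. The numbers are not known to pair samples: deviations of same-numbered samples correlated at 0.117, -0.111 and -0.035.

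List genes of small difference turned direction. Under scaling by 1 factor per sample the turns follow from a shift nearly alike for every gene. The cause of turns without 1 sample was not tested. With positive controls the genes that turned were AKT2 (0.11), CDKN1A (0.0353), LDHA (0.0180), MTOR (0.11), PIK3CA (0.0536) and SLC2A1 (0.0592). With total scaling they were AKT2 (0.0704), MTOR (0.0624), PIK3CA (0.0102) and SLC2A1 (0.0160), and with median-of-ratios ALDOA (-0.0264) and ENO1 (-0.0170). Without 1 sample, CDKN1A ranged from -0.223 (low density replicate 2 left out) to 0.0683 (low density replicate 1) and PFKFB4 from -0.486 (high density replicate 2) to 0.0228 (high density replicate 1). The planned count tests on recovered counts were not run, because in 1 sample the step was too close to 1 to be told from unscaled counts.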
